A study of Homo sapiens with 4 samples.

Results

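The genes described here are 10 that define or drive epithelial-mesenchymal transition (EMT), the loss of cell-cell adhesion and gain of motility by epithelial cells. They are the adhesion genes CDH1, CDH2 and EPCAM, the mesenchymal genes VIM and FN1, and the transcription factor genes SNAI1, SNAI2, TWIST1, ZEB1 and ZEB2. They were chosen by gene symbol, as rows placed on a named chromosome, and each of the 10 symbols matched 1 row of the 62077 in the expression table. RNA-Seq had been performed on FaDu cells, an established hypopharyngeal squamous carcinoma line, in 4 libraries with 1 library per group. N-scr was the scrambled control in normoxia and H-scr the scrambled control in hypoxia. N-si and H-si were the TET1 knockdown (TET1-si) in normoxia and in hypoxia. Hypoxia was 1% oxygen with 5% CO2 for 19 h. All cells, controls included, carried a lentiviral short hairpin vector. The methods describe assays within days of infection, while the study's text calls the FaDu lines clones. TET1 is a dioxygenase that oxidises 5-methylcytosine in DNA, and the study asked which of the genes that respond to hypoxia depend on it.

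In EMT, E-cadherin (encoded by CDH1) is typically lost from adherens junctions and N-cadherin (CDH2) is gained, which is called the cadherin switch. SNAIL (SNAI1), SLUG (SNAI2), ZEB1 and ZEB2 are zinc finger repressors that bind E-box sequences in the CDH1 promoter, and TWIST1 is a basic helix-loop-helix factor that binds E-boxes as a dimer with an E-protein. Hypoxia is a known inducer of EMT in carcinoma cells, partly through TWIST1 and SNAI1.

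Expression is given as FPKM, a read count corrected for the length of the gene and for sequencing depth, which allows levels of different genes to be compared. Approximate reads behind each value were recovered from the FPKM, at depths of 22400000 to 24500000 reads per library. No group had a replicate, so every difference below is between 2 libraries and has no replicate check. The 95% counting intervals are exact intervals of the log2 ratio of FPKM with no pseudocount. They cover counting error only and say nothing of differences between cultures. Changes are otherwise given as log2(FPKM + 0.1), which understates the change of low genes, and a gene was called higher or lower where it changed by 2-fold or more on that scale and its FPKM averaged 1 or more across the libraries, which is written below as measured. The mean is over all 4 libraries, so a gene can pass the minimum through the libraries in which it is high.

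TET1 itself was listed in control cells at 0.129 FPKM in normoxia and 0.331 in hypoxia, and in TET1-si cells at 0.0493 and 0.122, from approximately 28, 76, 11 and 26 reads. It was lower in each TET1-si library than in the scrambled library of the same oxygen state, and the level in H-si was close to that in N-scr. Of 8 hypoxia target genes measured, 7 were past 2-fold higher with hypoxia in control cells and 6 in knockdown cells. These are 87.5% and 75%, beside 12.9% and 12.5% of all genes called higher. The largest change in both was that of NDRG1, which went from 15.9 to 497 FPKM in control cells and was at 579 in H-si. CA9 is among the 6, yet it passed the minimum on the mean only through hypoxic control cells, at 7.82 FPKM. Knockdown cells had 0 FPKM of CA9 in normoxia and 0.506 in hypoxia, both below 1. Its call in knockdown cells therefore leans on that filter. All 10 squamous epithelial markers were detected, with FPKM sums of 4890 and 7788 in control cells (normoxia, hypoxia) and of 1744 and 3927 in TET1-si cells. Most of the lower sum after TET1-si was in KRT5, which had 2673 and 3993 FPKM in the scrambled libraries against 524 and 1430 in the TET1-si libraries, and in KRT17, which had 1503 and 2741 against 764 and 1783. KRT14 and KRT6A, at lower levels, had the largest folds, with 42.1 and 99.9 FPKM against 0.487 and 1.41 for KRT14 and 67.7 and 109 against 0.394 and 0.357 for KRT6A, although keratin genes have near-identical copies that can share reads. After TET1-si SFN, DSG3 and TP63 were also lower in both oxygen states. TP63 had 50.7 and 54.8 FPKM against 42.1 and 53.4. PKP1 was higher in both, at 2.69 and 10.4 FPKM against 4.62 and 20.2. PERP and DSC3 were lower in N-si than in N-scr and higher in H-si than in H-scr. PERP had 257 and 410 FPKM against 216 and 438, and DSC3 had 40.3 and 38.6 against 23.1 and 45.0. The 4 simple epithelial keratins had sums of 3385 and 3880 FPKM with the scrambled vector (normoxia, hypoxia) against 1106 and 1761 after the knockdown, and of these KRT19 was higher in H-si (1014) than in H-scr (868). Among 8 fibroblast markers, COL1A1 alone passed the minimum on the mean, and COL1A2 and LUM were listed at 0 in all 4 libraries. The endothelial cadherin CDH5 had 8.75 and 16.0 FPKM in scrambled cells (normoxia, hypoxia) and 21.8 and 45.5 in TET1-si cells, while the endothelial genes KDR and TEK stayed at or below 0.0434 in each library. Among leukocyte markers, PTPRC and CD3E were at or near 0, and CD14 and ITGAM passed the minimum, with at most 3.46 and 2.25 FPKM. In bulk RNA, fewer cells of a type and less RNA per cell cannot be told apart. The keratin shift moves with the TET1-si comparisons below, and its part in them was not tested.

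The expression profile of the 10 genes was epithelial in every library. CDH1 and EPCAM ranked highest of the 10 in all 4 libraries and SNAI2 was the highest of the 5 transcription factor genes, whereas VIM, SNAI1, ZEB1 and ZEB2 were below 1 FPKM in every library. In these RNA levels the cadherin switch did not appear in hypoxia. CDH1 was higher and CDH2 was lower in hypoxia than in normoxia, with or without the knockdown, which is the opposite of the change that the name of the switch implies. The study itself reported EMT of FaDu cells in hypoxia from western blots, immunofluorescence, and migration and invasion assays. RNA levels do not measure protein or motility.

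**Figure D1:**
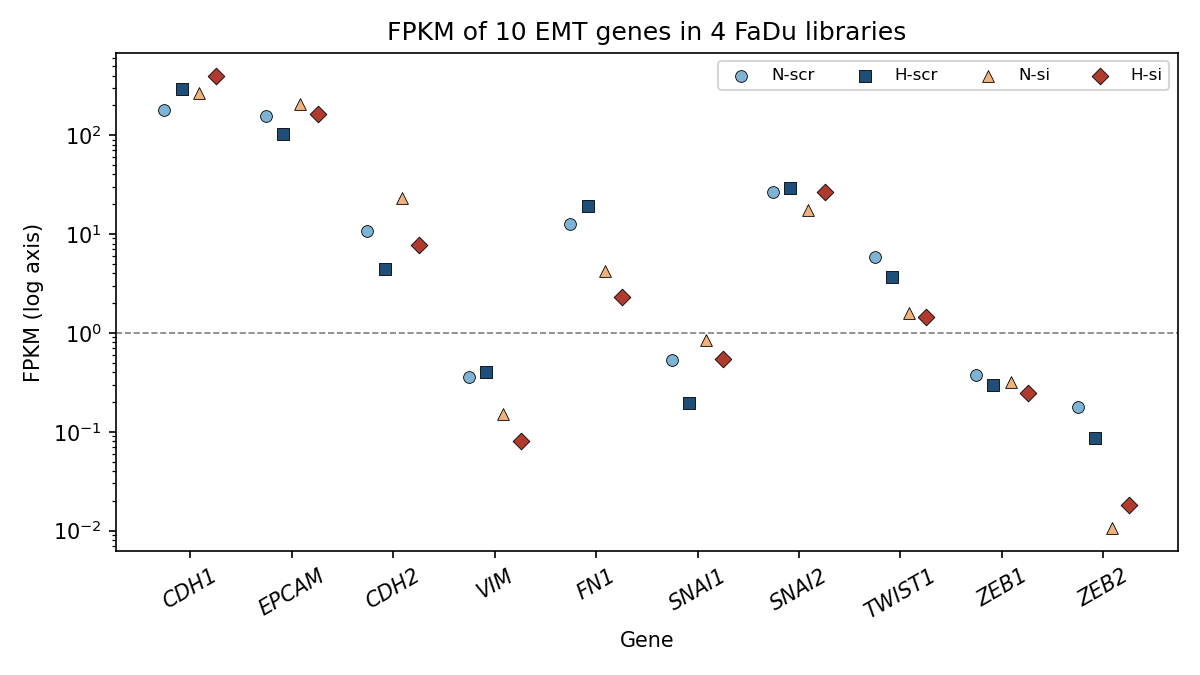
FPKM on a log axis for each of the 10 genes, with 1 point per library (N-scr, H-scr, N-si, H-si); the dashed line marks 1 FPKM. CDH1 (179 to 399) and EPCAM (102 to 206) sit above all others, VIM, SNAI1, ZEB1 and ZEB2 sit below 1 in each library, and the TET1-si points of FN1, TWIST1, VIM and ZEB2 lie below the scrambled points.

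The adhesion genes were read first. CDH1 (ENSG00000039068, chromosome 16, 68771128 to 68869445, plus strand, hg19) encodes E-cadherin, the calcium-dependent adhesion receptor of adherens junctions. Control cells had 179 FPKM in normoxia and 292 in hypoxia, and TET1-si cells had 267 and 399, from approximately 18793 to 41083 reads. The lowest value was in normoxic control cells and the highest in hypoxic TET1-si cells. With hypoxia CDH1 was 1.63-fold higher in control cells (log2 0.70, counting interval 0.68 to 0.73) and 1.49-fold higher in TET1-si cells (0.58, interval 0.56 to 0.60). After TET1-si it was 1.49-fold higher in normoxia and 1.37-fold higher in hypoxia. None of these changes reached 2-fold. An antisense long noncoding RNA inside the CDH1 locus, RP11-354M1.2, had 4.0 and 7.83 FPKM in control cells (normoxia, hypoxia) and 8.42 and 12.4 in TET1-si cells, the same order of libraries except that N-si lay above H-scr. The libraries were not stated to keep strand, so reads of CDH1 and of this RNA cannot be told apart where they overlap.

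EPCAM (ENSG00000119888, chromosome 2, 47572297 to 47614740, plus strand), a homophilic epithelial adhesion molecule whose cleaved intracellular domain can act in the nucleus, was at 155 FPKM in normoxic and 102 in hypoxic control cells and at 206 and 163 in TET1-si cells. It was lower in hypoxia in each knockdown state, by 1.52-fold in scrambled cells and by 1.26-fold in TET1-si cells, so the epithelial genes CDH1 and EPCAM moved in opposite directions with oxygen. After TET1-si EPCAM was higher, by 1.33-fold in normoxia and 1.61-fold in hypoxia, as CDH1 was. The ratio of CDH1 to EPCAM within a library was 1.16 (control) and 1.30 (TET1-si) in normoxia, and 2.87 and 2.44 in hypoxia.

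CDH2 (ENSG00000170558, chromosome 18, 25530930 to 25757410, minus strand) encodes N-cadherin, the cadherin of neural and mesenchymal cells. It stood at 10.8 FPKM in normoxia and 4.39 in hypoxia in control cells, and at 22.9 and 7.72 in TET1-si cells, from approximately 936, 409, 2136 and 657 reads. Each hypoxic library was below both normoxic libraries. The change with hypoxia was -1.28 in scrambled cells (interval of the log2 ratio -1.47 to -1.13), a 2.46-fold lower level, and -1.56 in TET1-si cells (-1.70 to -1.45), which is 2.97-fold lower. After TET1-si CDH2 was higher by 1.08 in normoxia (interval 0.98 to 1.20) and by 0.80 in hypoxia (0.63 to 0.99). The call in normoxia was lost when libraries were rescaled by their upper quartile or by the median of ratios, where no gene of the 10 was called higher; with the deposited scaling 12.1% of all genes were called higher in that comparison. An overlapping long noncoding RNA on the other strand, AC015933.2, had 0.771 and 1.26 FPKM in control cells and 1.98 and 0.589 in TET1-si cells, under the level of CDH2 in each library.

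The ratio of the cadherins within a library does not depend on the scaling between libraries. CDH1 exceeded CDH2 by 16.6-fold in N-scr (log2 4.05, interval 3.96 to 4.15) and by 11.6-fold in N-si (3.54, 3.48 to 3.61). In hypoxia it exceeded CDH2 by 66.5-fold in H-scr (6.06, 5.91 to 6.20) and by 51.7-fold in H-si (5.69, 5.58 to 5.81). The hypoxic ratios lay above both normoxic ratios, and the TET1-si ratio lay below the scrambled ratio in each oxygen state.

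**Figure D2:**
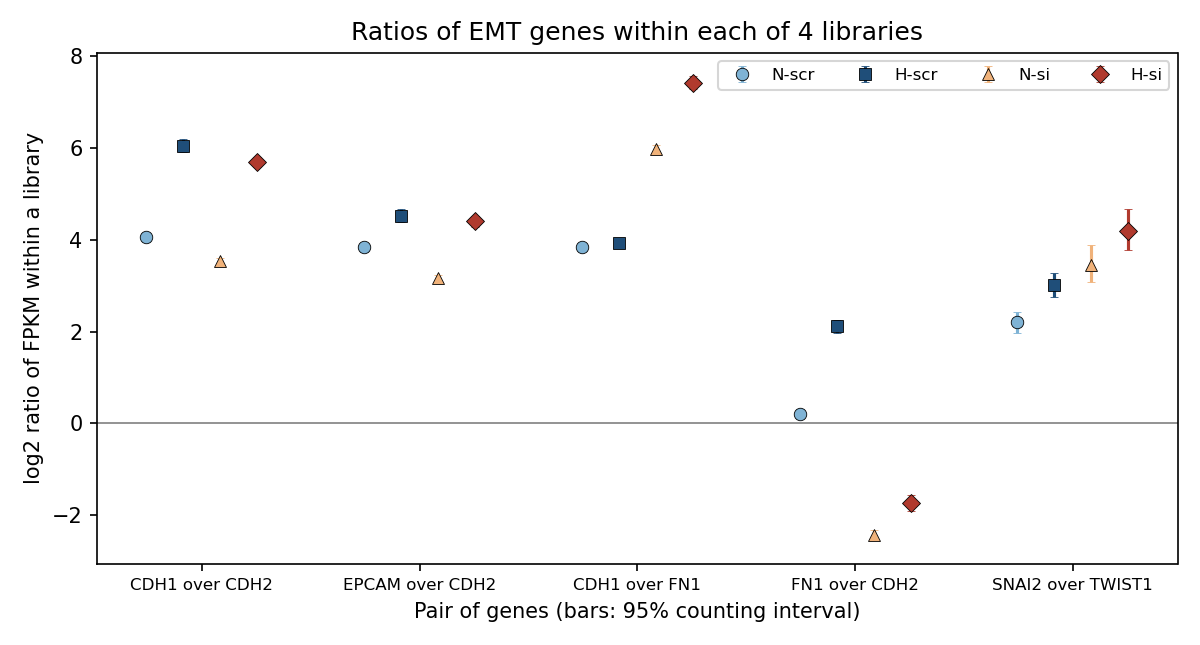
The log2 ratio of FPKM between pairs of genes within each library, with bars for the 95% counting interval. CDH1 over CDH2 was 6.06 and 5.69 in the hypoxic libraries H-scr and H-si against 4.05 and 3.54 in N-scr and N-si, whereas FN1 over CDH2 was above 0 in the scrambled libraries and below 0 in the TET1-si libraries.

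The sequence before the CDH2 start is shown because CDH2 alone of the 10 genes was called changed with hypoxia and because hypoxia-inducible factors bind the core ACGTG or GCGTG. The table held 2 windows for CDH2, and the window shown is the 250 bases before the RefSeq start at the 5′ end of the longer gene model in GRCh38.p14, minus strand, chr18:28177131-28177380, with the match to that core, read on either strand, in capitals.
CDH2: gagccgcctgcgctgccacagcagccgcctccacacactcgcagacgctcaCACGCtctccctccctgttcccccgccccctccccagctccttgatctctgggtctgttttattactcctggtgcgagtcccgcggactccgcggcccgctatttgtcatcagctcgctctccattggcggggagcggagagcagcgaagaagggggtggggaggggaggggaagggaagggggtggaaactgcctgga
The window held 1 such match, which starts at -199 from the start, and 17 CG dinucleotides against a median of 11 over 35116 promoters. A core match is common, since 43.2% of all such windows held at least 1. No E-box (CANNTG), nor the CACCTG or CAGGTG form that SNAIL, SLUG and the ZEB factors prefer, was found in this window or in the following 50 bases. CANNTG, which includes the CACCTG and CAGGTG form, was present in 61.8% of all windows before the start and the narrower form in 17.5%.

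The mesenchymal genes differed from each other by level. FN1 (ENSG00000115414, chromosome 2, 216225163 to 216300895, minus strand) encodes fibronectin, a matrix glycoprotein that binds integrins. It was listed at 12.5 FPKM in normoxic and 19.0 in hypoxic control cells and at 4.24 and 2.32 in TET1-si cells, from approximately 2327, 3809, 850 and 424 reads. Both TET1-si libraries were below both scrambled libraries. After TET1-si FN1 was lower by 2.98 on the log2 scale in hypoxia (change -2.98, interval of the ratio -3.19 to -2.89), or 8.21-fold, and by 2.94-fold in normoxia (change -1.54, interval -1.67 to -1.44). Relative to CDH1 in the same library, FN1 was 14.4-fold and 15.4-fold lower in N-scr and H-scr and 62.9-fold and 172-fold lower in N-si and H-si.

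FN1 also differed with hypoxia in opposite directions in the knockdown states. Its level was higher by 1.52-fold in control cells (change 0.60, interval 0.53 to 0.68) and 1.83-fold lower in TET1-si cells (change -0.85, interval -1.05 to -0.70). The difference of these responses, TET1-si less scrambled, was -1.45, and -1.48 with no pseudocount (interval -1.66 to -1.30). FN1 was the only one of the 6 measured genes whose difference of responses passed 2-fold in either direction, and 7.86% of 15057 genes did so on the lower side and 4.87% on the higher side. For the other 5 the differences were 0.55 for TWIST1, 0.48 for SNAI2, 0.27 for EPCAM, -0.12 for CDH1 and -0.28 for CDH2.

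The FN1 promoter is shown because FN1 had the largest change of the 6 genes after TET1-si in hypoxia and because its density of CG dinucleotides, the substrate context of DNA methylation, can be read from it. The window is the 250 bases before the RefSeq start in GRCh38.p14, minus strand, chr2:215436069-215436318, and the capitals mark a cyclic AMP response element, TGACGTCA, a palindrome that was added to the motifs searched after the others.
FN1: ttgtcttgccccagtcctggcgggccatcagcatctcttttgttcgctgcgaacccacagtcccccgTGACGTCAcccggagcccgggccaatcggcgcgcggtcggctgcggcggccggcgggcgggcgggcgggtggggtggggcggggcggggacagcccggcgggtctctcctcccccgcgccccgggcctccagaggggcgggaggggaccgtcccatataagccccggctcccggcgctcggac
It held 32 CG dinucleotides and a GC content of 76.4%, against a median of 11 and 58% over all promoters in the table, whose upper quartile and 95th percentile were 23 and 35 CG dinucleotides. The TGACGTCA match starts at -183, and 1.65% of all such windows held this motif. Neither an E-box nor the ACGTG or GCGTG core was found in the window or in the following 50 bases. Methylation of these CG sites was not analysed here.

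VIM (ENSG00000026025, chromosome 10, 17270258 to 17279592, plus strand) encodes vimentin, the type III intermediate filament of mesenchymal cells, and was near the limit of detection. It had 0.355 FPKM in normoxic and 0.406 in hypoxic control cells, and 0.151 and 0.0816 in TET1-si cells, from approximately 16, 19, 7 and 4 reads. The TET1-si libraries were below the scrambled libraries, but the counting interval excluded 0 in hypoxia alone (-4.13 to -0.53 for the log2 ratio of H-si to H-scr). A difference of VIM between normoxia and hypoxia was not detectable at this depth in either knockdown state, with intervals of -0.89 to 1.20 and -2.90 to 1.30. The TET1-si change in hypoxia, -1.48, passed 2-fold and was not called because VIM was under the minimum on the mean. CDH1 exceeded VIM by 505-fold in N-scr and by more in the other libraries.

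Among the transcription factors, SNAI2 was the highest in every library. SNAI2 (ENSG00000019549, chromosome 8, 49830249 to 49834299, minus strand) encodes SLUG, a repressor that is also a normal regulator of basal keratinocytes. Control cells had 26.8 FPKM in normoxia and 29.3 in hypoxia, and TET1-si cells had 17.6 and 26.8. The value in N-si stood below the other three libraries, which lay within 1.09-fold of each other. The change with hypoxia was 0.13 in control cells and 0.61 after the knockdown, and the TET1-si response was -0.61 in normoxia and -0.13 in hypoxia.

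TWIST1 (ENSG00000122691, chromosome 7, 19060614 to 19157295, minus strand) had 5.83 FPKM in normoxic and 3.63 in hypoxic control cells, and 1.60 and 1.46 in TET1-si cells, from approximately 188, 126, 55 and 46 reads. Both TET1-si libraries were below both scrambled libraries. After TET1-si it was 3.65-fold lower in normoxia (change -1.80, interval -2.34 to -1.44) and 2.48-fold lower in hypoxia (change -1.26, interval -1.84 to -0.83). With a pseudocount of 1 the call in hypoxia was lost and that in normoxia was kept. In hypoxia TWIST1 was lower in scrambled cells (change -0.67, interval -1.02 to -0.35), and in TET1-si cells the interval of -0.73 to 0.46 spanned 0. The ratio of SNAI2 to TWIST1 was 4.60 and 8.08 in normoxic and hypoxic control cells and 11 and 18.3 in TET1-si cells.

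SNAI1, ZEB1 and ZEB2 were too low for a call. SNAI1 (ENSG00000124216, chromosome 20, 48599536 to 48605423, plus strand), which encodes SNAIL, had 0.532 FPKM in normoxic and 0.193 in hypoxic control cells, and 0.857 and 0.542 in TET1-si cells, from approximately 18, 7, 31 and 18 reads. Its lowest level was in hypoxic control cells, where the interval of the log2 ratio to N-scr was -2.97 to -0.14, and H-si was above H-scr with an interval of 0.16 to 2.99. Both changes passed 2-fold, at -1.11 and 1.13, and were not called because SNAI1 was under the minimum on the mean. ZEB1 (ENSG00000148516, chromosome 10, 31607424 to 31818742, plus strand) had 0.373 and 0.299 FPKM in control cells and 0.318 and 0.247 in TET1-si cells, normoxia first. All 4 of its counting intervals spanned 0, and that of hypoxia in TET1-si cells, -1.06 to 0.32, reached past a 2-fold lower level. Its antisense RNA ZEB1-AS1, whose locus overlaps the ZEB1 start, was at 0.821, 0.767, 1.65 and 1.20 FPKM in the same order and so above ZEB1 itself. Of the other genes that overlap one of the 10, the pseudogene FTLP14 inside CDH1 reached 1.51 FPKM, RP11-124N14.3 in VIM and AC003986.6 in TWIST1 stayed at or below 0.109, and ZEB2-AS1 was listed at 0 in all libraries.

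ZEB2 (ENSG00000169554, chromosome 2, 145145568 to 145282147, minus strand) had 0.177 FPKM in normoxic and 0.0870 in hypoxic control cells, and 0.0106 and 0.0182 in TET1-si cells, from approximately 37, 19, 2 and 4 reads. It was lower in TET1-si cells, with intervals of -7.41 to -2.36 in normoxia and -4.13 to -0.53 in hypoxia, and lower in hypoxia in scrambled cells (-1.95 to -0.23). The TET1-si change in normoxia, -1.33, passed 2-fold and was not called for the same reason as SNAI1. The 250 bases before its RefSeq start in GRCh38.p14, minus strand, chr2:144520120-144520369, are shown because they held 4 matches to the hypoxia-inducible factor core. The 7 windows of ZEB1 held between 0 and 3 each before the start, and those of CDH2, FN1 and VIM at most 1. At least 4 matches were found in 3.22% of all windows and at least 3 in 7.76%. The matches, read on either strand, are in capitals.
ZEB2: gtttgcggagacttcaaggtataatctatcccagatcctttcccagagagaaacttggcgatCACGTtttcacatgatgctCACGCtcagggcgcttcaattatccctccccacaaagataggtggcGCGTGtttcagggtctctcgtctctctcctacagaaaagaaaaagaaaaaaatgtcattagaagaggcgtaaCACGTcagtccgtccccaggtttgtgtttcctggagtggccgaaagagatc
The 4 matches start at -188, -169, -123 and -51, and 1 CANNTG at -180 lay between the 2 farthest from the start without overlapping them. ZEB2 was not higher in H-scr than in N-scr, and a match describes letters in this window and not a bound site. RefSeq windows were found for 5 of the 10 genes, namely CDH2, VIM, FN1, ZEB1 and ZEB2, and none for CDH1, EPCAM, SNAI1, SNAI2 and TWIST1.

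The 10 genes were then counted in each comparison. In hypoxia in scrambled cells 0 of the 6 measured genes were called higher and 1, CDH2, was called lower, where 12.9% of 15057 genes were called higher and 4.53% lower. In hypoxia in TET1-si cells the counts were again 0 higher and 1 lower, CDH2, against 12.5% and 8.66% of all genes. After TET1-si in hypoxia 0 were higher and 2, FN1 and TWIST1, were lower, against 12% and 8.35%. After TET1-si in normoxia 1, CDH2, was higher and 2, FN1 and TWIST1, were lower, against 12.1% and 5.56%. The median change of the 6 genes was -0.24 and -0.23 for hypoxia in scrambled and TET1-si cells, and 0.16 and -0.10 for TET1-si in hypoxia and normoxia, beside medians of 0.05, 0.03, 0.10 and 0.15 over all genes. With 6 genes these counts are small, and nothing is read from them beyond which genes were called. The hypoxia comparisons share libraries with the TET1-si comparisons, so they are not independent of each other.

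**Figure D3:**
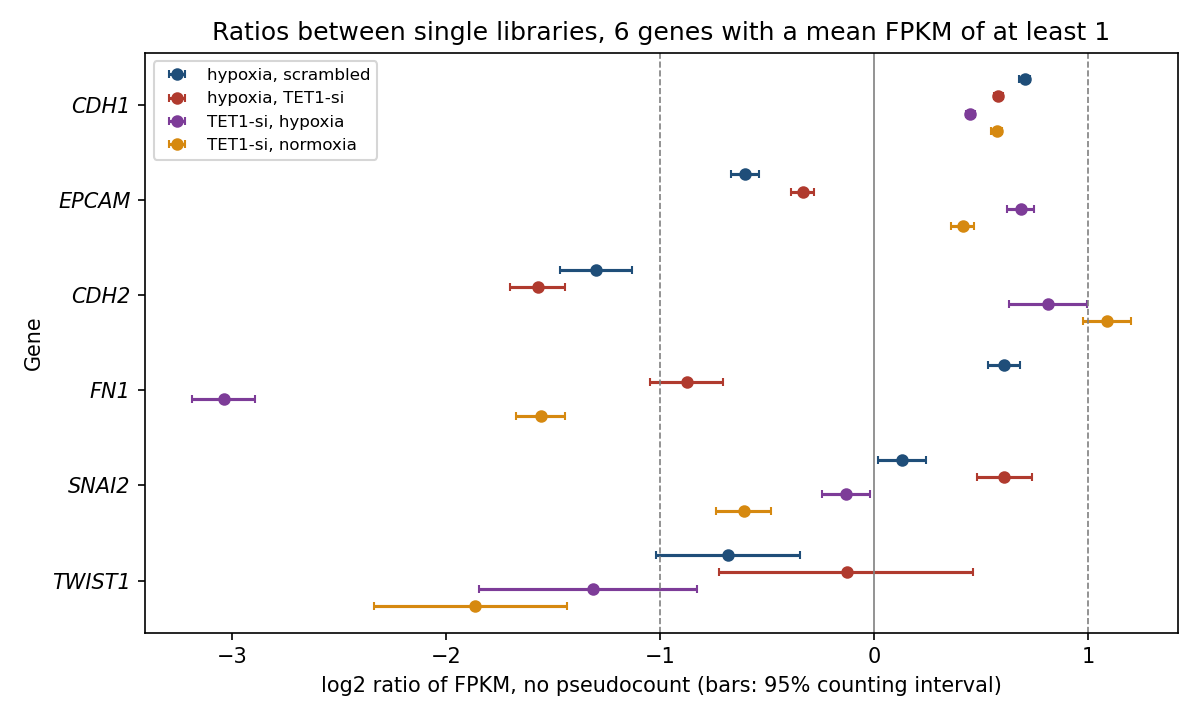
The log2 ratio of FPKM between 2 libraries (no pseudocount) for the 6 measured genes, in the 4 comparisons, with bars for the 95% counting interval and dashed lines at 2-fold. CDH2 lies past -1 in both hypoxia comparisons, FN1 and TWIST1 lie past -1 in both TET1-si comparisons, and FN1 lies on opposite sides of 0 in the 2 hypoxia comparisons.

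The study selected genes by 3 criteria on the FPKM. They required hypoxic control cells to exceed hypoxic TET1-si cells by more than 2-fold and to exceed normoxic control cells, and normoxic control cells to be no lower than normoxic TET1-si cells. Of the 10 genes, FN1 and VIM met all 3, FN1 on 424 to 3809 reads and VIM on 4 to 19 reads per library. Of the 15057 measured genes 3.84% (578) met all 3, and 4.27% (2638) of the 61845 rows with an unrepeated ID did so with no minimum on the mean. Neither count equals the number of genes that the study reported. Whether FN1 and VIM were in the study's own set therefore cannot be told from this. TWIST1 and ZEB2 met the first and the last of these and were not higher in hypoxia in control cells.

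Genes that act with the 10 were read from lists grouped by role, and each count is of the list's measured genes. Their 4 values are in the order N-scr, H-scr, N-si and H-si throughout. Each count is to be read beside the shares and medians of all genes given above, and nothing particular to a list is read from it. In the catenins and junction partners that hold cadherins at the membrane, 10 genes were measured, with medians of 0.23 and 0.28 for hypoxia in scrambled and TET1-si cells, and -0.21 and 0.34 for TET1-si in hypoxia and normoxia. The 2 highest were CTNNA1, alpha-catenin, at 279, 327, 148 and 180 FPKM, and CTNND1, p120-catenin, at 109, 114, 152 and 186. The 1 gene called after TET1-si was PKP2, plakophilin 2, a desmosomal plaque protein, which was higher in both oxygen states at 26.5, 28.9, 74.4 and 90.9 FPKM. With hypoxia PKP1, plakophilin 1, was called higher in each knockdown state at 2.69, 10.4, 4.62 and 20.2 FPKM, and CTNNAL1 was called lower in TET1-si cells, with 31.5 FPKM in normoxia and 9.42 in hypoxia. Of the 10, 4 were above 0 and 4 below 0 in both TET1-si comparisons. In the other cadherins 4 genes were measured, and CDH3 was left out because its gene ID was repeated. CDH5 was the highest of the 4 and was called higher after TET1-si in both oxygen states, whereas CDH11, a mesenchymal cadherin, was called lower in both at 2.17, 1.80, 1.03 and 0.388 FPKM. CDH11 was near or below 1 FPKM in the TET1-si libraries and passed the minimum on the mean through the scrambled libraries. Its calls as lower therefore lean on that filter. CDH13 was called lower after TET1-si in hypoxia.

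The other EMT transcription factors, 14 genes measured, had medians of -0.30 and -0.40 after TET1-si in normoxia and hypoxia, with 0 higher and 3 lower in normoxia (12.1% and 5.56% of all genes) and 2 higher and 3 lower in hypoxia (12% and 8.35%). The 3 lower in normoxia were TCF3 and TCF4, which encode the E-proteins that dimerise with TWIST1, and ID1, an inhibitor that sequesters E-proteins. TCF3 had 65.5, 38.6, 22.0 and 27.3 FPKM, TCF4 had 2.45, 1.69, 0.594 and 0.776, and ID1 had 86.4, 50.1, 26.8 and 25.7. For each of the 3, as for TWIST1, both TET1-si libraries were below both scrambled libraries. In hypoxia the lower genes were ETS1, at 43.2, 32.4, 32.2 and 10.7 FPKM, RUNX2 and TCF4, and the higher genes were ID3, at 2.16, 2.66, 3.05 and 6.96 FPKM, and FOXC1. RUNX2 had 1.02, 2.09, 0.759 and 0.670 FPKM. RUNX2 and TCF4 were below 1 FPKM in both TET1-si libraries and passed the minimum on the mean only through the scrambled libraries. Their calls as lower therefore lean on that filter. BHLHE40, the highest of the list and a hypoxia target, was higher in hypoxia at 40.7, 140, 38.4 and 78.5 FPKM. Since the list also holds ID1, its relative ID3 and BHLHE40, its counts are not counts of EMT drivers.

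The epithelial factors that oppose ZEB and SNAIL, 14 genes measured, had medians of 0.36 and 0.29 for hypoxia in scrambled and TET1-si cells and 0.49 and 0.50 for TET1-si in normoxia and hypoxia, with 3 higher and 1 lower in normoxia (12.1% and 5.56% of all genes) and 3 higher and 0 lower in hypoxia (12% and 8.35%). Grainyhead-like 2, encoded by GRHL2 and a known activator of CDH1, was called higher after TET1-si in both oxygen states at 63.5, 70.0, 147 and 160 FPKM. EHF was also called higher in both, at 9.98, 14.7, 28.9 and 30 FPKM. KLF5 was the factor called lower in normoxia. The corepressors and stability regulators of SNAIL, SLUG and TWIST1 had medians between -0.10 and 0.00 over the 4 comparisons in 23 genes. LOXL2, a SNAIL partner of the lysyl oxidase family, was called higher in hypoxia in each knockdown state at 33.4, 110, 61.2 and 173 FPKM, and EZH2 was lower in H-si at 13.5 FPKM than in the other libraries at 27.7 to 32.6.

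The TGF-beta, BMP and SMAD axis includes the TGF-beta ligands, which are secreted inducers of EMT, and also receptors, SMADs and inhibitors of the pathway. Its counts are therefore not counts of inducers. In this list 16 genes were measured, and 4 were called higher and 0 lower after TET1-si in each oxygen state. That is 25% of the list beside 12.1% of all genes in normoxia and 12% in hypoxia. The medians were 0.45 in normoxia and 0.58 in hypoxia, beside 0.15 and 0.10 over all genes. TGFB2 had 14.5, 9.67, 66.5 and 50.5 FPKM, and BMP7 had 3.07, 1.94, 8.86 and 12.4. TGFBI, a TGF-beta induced matrix protein, was higher after TET1-si and higher in hypoxia at 10.9, 31.3, 26.0 and 93.9 FPKM. SMAD4, the common partner of the receptor-activated SMADs, was listed at 0 in all 4 libraries. The TGF-beta ligand gene TGFB2 was higher in the same libraries in which FN1 and TWIST1 were lower, but the ligand genes did not move alike. TGFB3 changed by 0.73 in normoxia and 1.09 in hypoxia after TET1-si, and TGFB1 by 0.13 and -0.18.

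The mesenchymal cytoskeleton and matrix genes, 12 measured, had medians of 0.31 and 0.60 for hypoxia and -0.35 and -0.48 for TET1-si in normoxia and hypoxia. After TET1-si 8 of the 12 were below 0 in both oxygen states, as FN1 was, and 4 were above 0 in both. No share of all genes is given for these directions. Called after TET1-si in normoxia were 3 higher and 4 lower, or 25% and 33.3% beside 12.1% and 5.56% of all genes. In hypoxia 2 were higher and 2 lower, or 16.7% each beside 12% and 8.35%. With hypoxia 4 were called higher and 0 lower in each knockdown state, or 33.3% higher beside 12.9% and 12.5%. The collagen genes COL5A1 at 0.624, 4.18, 10.5 and 32.1 FPKM and COL6A1 at 3.37, 11.6, 17.7 and 40.7 were called higher in hypoxia and after TET1-si in each pair of libraries. TNC, tenascin C, was called lower after TET1-si in both oxygen states at 3.52, 2.83, 1.31 and 0.775 FPKM, as was TAGLN. CALD1, caldesmon, was called lower in normoxia at 56.6, 70.5, 20.6 and 37.0 FPKM. S100A4 had the largest hypoxia changes of the list, 3.19 and 3.53, at 2.61, 24.5, 1.45 and 17.8 FPKM. Among 8 fibronectin receptors and assembly genes, 3 were called higher in hypoxia in each knockdown state, or 37.5% beside 12.9% and 12.5% of all genes, and 0 and 1 lower after TET1-si in normoxia and hypoxia, beside 5.56% and 8.35%. ITGB1, the beta chain of the main fibronectin receptor, had 329, 287, 199 and 170 FPKM, and ITGAV had 18.5, 48.8, 21.7 and 51.8. TGM2, which cross-links fibronectin, was the 1 called lower, with 4.51 FPKM in hypoxic control cells and 1.38 in hypoxic TET1-si cells.

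The 14 EPCAM partners and processing genes measured had medians of 0.45 and 0.57 for hypoxia in control and knockdown cells, while EPCAM was lower. CLDN7, the claudin that binds EPCAM, was at 126, 112, 217 and 214 FPKM, with changes of -0.17 and -0.02 for hypoxia and 0.79 and 0.93 for TET1-si in normoxia and hypoxia. CD44, a partner of EPCAM, was called lower in H-si against N-si and against H-scr. The 8 measured intermediate filament genes had the lowest medians after TET1-si, -1.41 in normoxia and -1.05 in hypoxia, with 4 called lower in both, or 50% beside 5.56% and 8.35% of all genes. These were KRT5, KRT14, KRT8 at 1739, 1903, 481 and 453 FPKM, and KRT18 at 1109, 970, 304 and 227. Of 17 polarity and tight junction genes, 2 were called higher after TET1-si in normoxia, 11.8% of the list and so near the 12.1% of all genes, and 4 in hypoxia, 23.5% beside 12%. None was called lower in these 2 comparisons (0 of 17), and the medians were 0.44 and 0.55. TJP3, a scaffold protein of tight junctions, had the largest hypoxia change of the list, 3.03 in TET1-si cells, at 2.07, 7.15, 2.40 and 20.3 FPKM. OCLN, occludin, at 5.77, 5.06, 14.3 and 11.4 FPKM and PARD6A at 1.54, 1.30, 5.80 and 5.23 were called higher in both. CDH13, TCF3, RUNX2, FOXC1, SMAD4, TGFB1, TGFB3, COL6A1, TAGLN, ITGAV, CLDN7, CD44, KRT8, KRT18 and OCLN lie outside the rule for naming and were chosen after their values were seen.

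**Figure D4:**
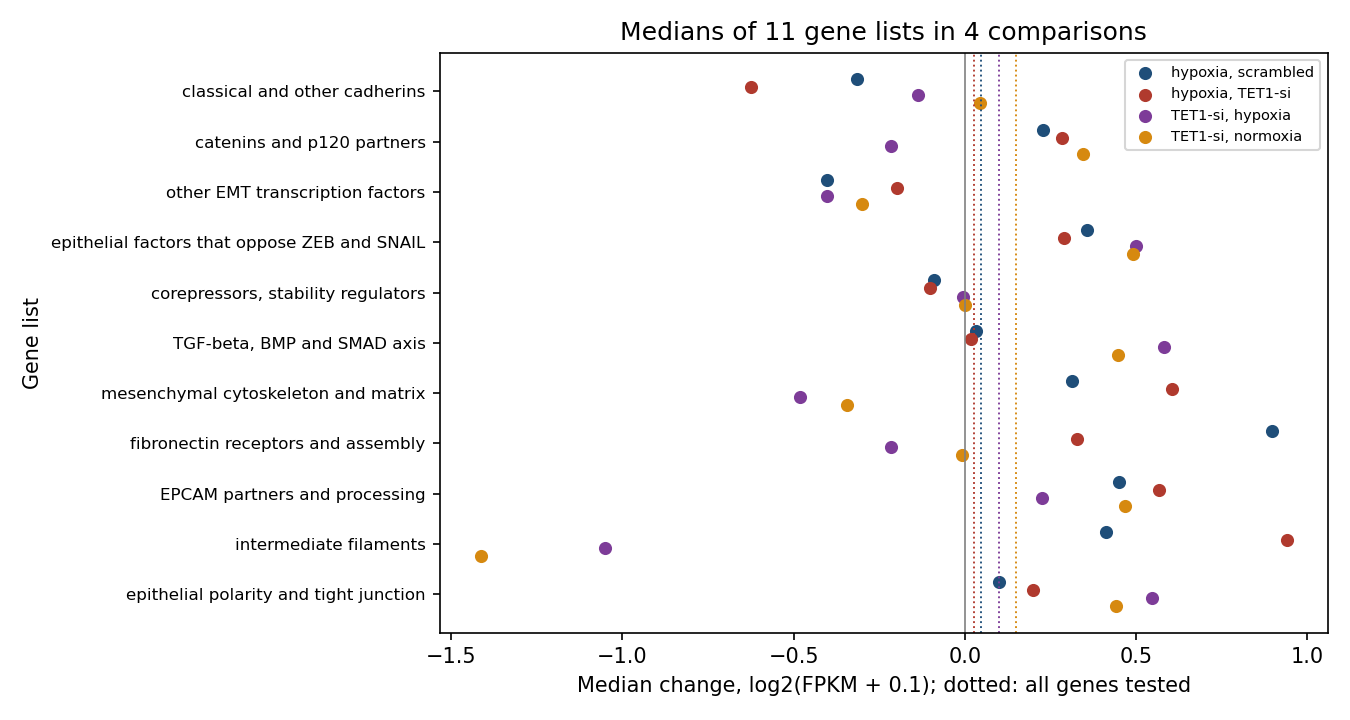
Median change on the log2(FPKM + 0.1) scale of 11 gene lists in the 4 comparisons, with dotted lines at the median of all 15057 genes. After TET1-si the intermediate filament list sits lowest (-1.41 and -1.05) and the TGF-beta, polarity and epithelial factor lists sit between 0.44 and 0.58.

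The position of the 10 genes was also read, as the 25 nearest protein-coding genes on each side that passed the same minimum on the mean. CDH2 was lower than all 50 of its neighbours in both hypoxia comparisons, while the neighbours' medians were 0.01 and -0.02. FN1 was lower than all 50 of its neighbours in both TET1-si comparisons, where the neighbours' medians were 0.22 in normoxia and 0.27 in hypoxia. The nearest of them, ATIC at a gap of 10676 bp, had 122, 67.4, 140 and 73.9 FPKM.

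TWIST1 differed in this respect. Its 50 neighbours had medians of -0.31 in normoxia and -0.26 in hypoxia after TET1-si, against 0.15 and 0.08 for all coding genes, and 33 and 36 of the 50 were below 0. Lower than TWIST1 itself were 3 neighbours in normoxia and 7 in hypoxia. HDAC9, a histone deacetylase gene whose locus ends 23621 bp before that of TWIST1 in the annotation used by the table, was named after its values were seen. It had 5.63 and 10.5 FPKM in the scrambled libraries against 1.49 and 1.47 in the TET1-si libraries, where TWIST1 had 1.60 and 1.46. Whether the lower TWIST1 level belongs to a wider stretch of chromosome 7 was not tested.

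**Figure D5:**
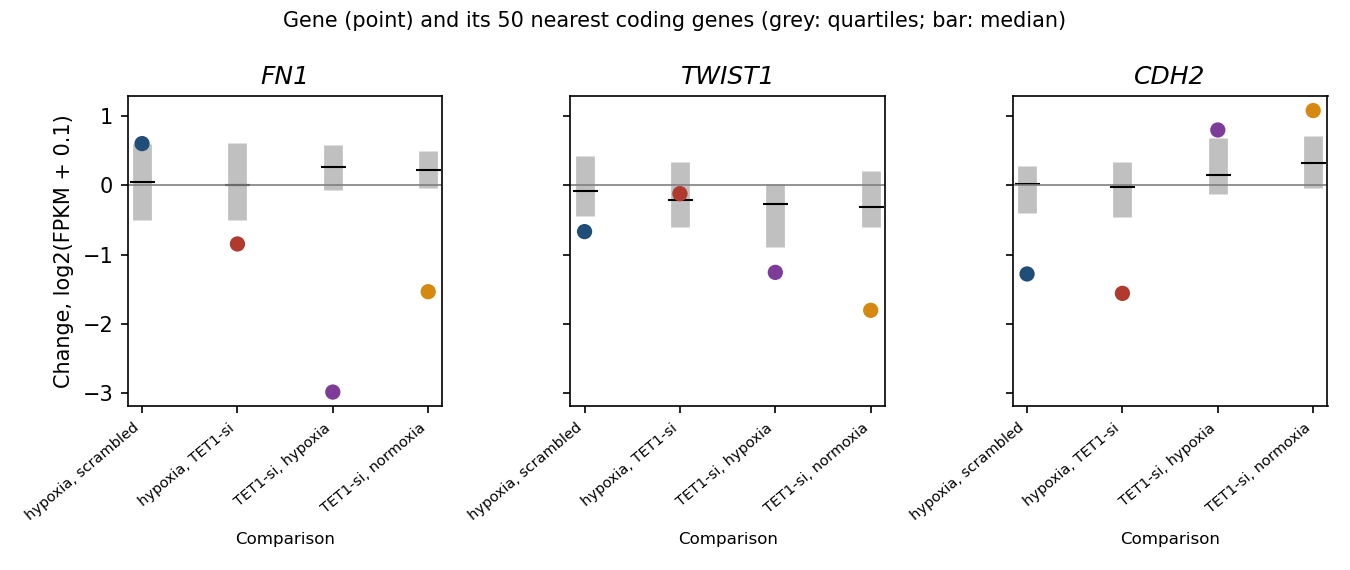
Change on the log2(FPKM + 0.1) scale of FN1, TWIST1 and CDH2 (points) and of their 50 nearest coding genes (grey bars from the lower to the upper quartile, black line at the median) in the 4 comparisons. FN1 lies far under its neighbours after TET1-si (-2.98 in hypoxia against a median of 0.27), whereas the neighbours of TWIST1 themselves have medians of -0.31 and -0.26.

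The genes whose profile over the 4 libraries lay closest to CDH1, CDH2 and TWIST1 were searched among 9465 coding genes that averaged 5 FPKM or more, by the root-mean-square distance of centred log2(FPKM + 0.1) values. CDH1 had 100 genes within a distance of 0.1, led by HEATR6, MAPK3 and C2orf42, so its profile was a common one. CDH2 and TWIST1 each had 1 gene within that distance. For CDH2 it was MIS18A, at 9.05, 3.97, 21.0 and 6.24 FPKM, followed by SFXN2 and BARD1. For TWIST1 it was POLR3B, at 11.1, 6.92, 3.40 and 2.98 FPKM, followed by ID1 and BLMH. With 4 libraries a shared profile is a description of 4 values per gene.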

How the data were processed

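RNA-Seq was performed by the study in 4 libraries of FaDu cells, 1 per group, with groups taken from the sample titles. The authors deposited a gene-level table of FPKM, made with TopHat and Cufflinks from TruSeq mRNA libraries with Ensembl annotations on hg19; versions are not given in the sources used here. Reads are single end per the labels and paired end per the methods. No column of the table was left without a sample (0 columns).

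Values were read with Python 3.11.15, pandas 2.3.3, numpy 2.4.6 and SciPy 1.17.1 and drawn with matplotlib 3.10.9. Changes used log2(FPKM + 0.1), a minimum mean FPKM of 1 and a fold of 2, and 232 rows of 111 repeated gene IDs were left out, CDH3 among them. Since the values are not counts, count models were not used. Depth was recovered from 6330 genes of 1 exon, for which 97.1% to 97.6% of low values came out as whole reads within a tolerance of 0.05. Approximate reads are FPKM times depth times the canonical transcript length in GENCODE v44lift37 less 213.5 bp, and other isoforms would change them. Counting intervals are exact (Clopper-Pearson) at 95%, and those of a difference of responses use Poisson errors on the log scale. The depth search and the exact intervals were tested on simulated data. The intervals of a difference of responses were not. Start positions of the table had 1 added. Promoter windows came from RefSeq (GRCh38.p14). Proteins were not analysed here.

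The rule for naming took all 10 genes, TET1 and its control genes, genes overlapping the 10, the nearest profiles, and, from each list, the 2 highest genes and the largest called rise and fall of each comparison as far as the text needed them, so some of these are counted and not named. The 10 genes and all lists were chosen with earlier results of these data known. Alternatives were other pseudocounts, minimums, folds and 3 rescalings. The same alternatives for the difference of responses were added after the data were seen.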

Additional observations from a re-analysis of the deposited data

Results flagged for a closer look

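FN1 stood out because it changed with hypoxia in opposite directions in the knockdown states: it was higher in H-scr than in N-scr and lower in H-si than in N-si, with both counting intervals clear of 0. The difference of the responses was -1.45 on the log2(FPKM + 0.1) scale. With 1 library per group the difference was not tested against variation between cultures.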

How the results depend on the processing

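Of 250 recomputed changes of the 10 genes (50 values, 5 alternatives), 209 stayed within their counting interval and 4 changed sign, all of them values that were near 0: TWIST1 with hypoxia in TET1-si cells when rescaled to TPM, and the difference of responses of ZEB1 under 3 alternatives. No called change reversed. Counts of genes past the fold moved as follows. With a fold of 1.5 in place of 2, hypoxia gave 2 higher and 3 lower in scrambled cells and 1 higher and 2 lower in TET1-si cells, and TET1-si gave 2 higher in hypoxia and 3 lower in normoxia. With no minimum on the mean, 2 were lower with hypoxia in scrambled cells and 1 was higher after TET1-si in hypoxia, in each case by the addition of SNAI1, and 3 were lower after TET1-si in each oxygen state, by the addition of VIM (-1.48) in hypoxia and of ZEB2 (-1.33) in normoxia. With a minimum of 5, 1 was lower after TET1-si in each oxygen state, since TWIST1 was left out. With a pseudocount of 1, 1 was lower after TET1-si in hypoxia. With upper-quartile or median-of-ratios scaling, 0 were higher after TET1-si in normoxia. The count for the difference of responses was the same under every alternative run. The log2 cadherin ratios stayed within the counting error with a pseudocount of 0.1, the only alternative run for them. That alternative can move genes at these levels only slightly, so little is learned from it. Rescaling to TPM moved the median change of all genes from between 0.03 and 0.15 to between 0.16 and 0.20. Medians of the lists changed sign in 17 cases, most of them near 0. The exceptions were the other cadherins, where a minimum of 5 took TET1-si in hypoxia from -0.14 to 0.94 and dropping the minimum took hypoxia in scrambled cells from -0.31 to 0.08, and the intermediate filaments, where dropping the minimum took hypoxia in TET1-si cells from 0.94 to -0.04. No paired analysis was possible because each group had 1 library. For VIM, SNAI1, ZEB1 and ZEB2, 2 to 49 reads per library limit what can be seen.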

Other observations

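TWIST2, the paralog of TWIST1, was named after its values were seen. It had 2.58 FPKM in normoxic and 1.94 in hypoxic control cells, and 2.20 and 1.52 in TET1-si cells, with a TET1-si response of -0.22 in normoxia and -0.33 in hypoxia, where TWIST1 had -1.80 and -1.26. In H-si the level of TWIST2 was above the 1.46 FPKM of TWIST1, and in N-scr it was below the 5.83 FPKM of TWIST1.

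COL5A1 went from 0.624 FPKM in N-scr to 32.1 in H-si, and FN1 from 12.5 to 2.32 between the same libraries. These libraries differ in both oxygen state and knockdown. With hypoxia in scrambled cells both matrix genes were higher, COL5A1 at 4.18 FPKM and FN1 at 19.0 in H-scr. They moved in opposite directions with hypoxia in TET1-si cells and after TET1-si in each oxygen state. CA9, a hypoxia target that encodes a carbonic anhydrase, was listed at 0.18 FPKM in normoxic and 7.82 in hypoxic control cells and at 0 and 0.506 in TET1-si cells, and KRT6A at 67.7, 109, 0.394 and 0.357. Both were lower in H-si than in H-scr, as FN1 was. Of the 8 hypoxia targets, CA9 and ADM were the 2 called lower in that comparison, and 0 were called higher. The call of CA9 leans on the minimum on the mean, which it passed only through its 7.82 FPKM in H-scr. VEGFA, EGLN3 and ANKRD37 were lower by less than 2-fold, and NDRG1, BNIP3 and PDK1 were higher in H-si. Of the squamous markers, PERP, DSC3 and PKP1 were higher in H-si. What CA9, KRT6A and FN1 share was not tested.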
